A study of Mus musculus with 8 samples.

Results

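The Vmn2r receptor genes of mouse chromosome 7 were examined in 8 RNA-seq libraries of whole vomeronasal epithelium. The members are the genes with a numbered Vmn2r symbol in GENCODE M21 whose first exon in the deposited gene models lies on chromosome 7, without Vmn2r53 and Vmn2r65. This rule gave 49 genes, all annotated as protein-coding, out of 121 numbered Vmn2r genes and 48831 genes in all. Of the 49 members, 47 passed the filter on low counts and could be tested, while Vmn2r47 and Vmn2r71 did not.

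Vmn2r genes encode class C G protein-coupled receptors with a long extracellular ligand-binding domain. They are expressed in the sensory neurons of the basal layer of the vomeronasal epithelium, which signal through the G protein subunit Gnao1 and are known to detect peptides and proteins in urine, tears and saliva. A mature basal neuron expresses a single clustered Vmn2r gene or very few, together with a broadly expressed co-receptor of family C (Vmn2r1 to Vmn2r7). In bulk tissue, fewer neurons of a type and less RNA per neuron cannot be told apart.

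The tissue came from C57BL/6J mice of both sexes aged 8 weeks, with no transgene or treatment named. Each of 2 male and 2 female libraries was a non-flushed pool of 2 mice, and each of 2 further male and 2 further female libraries came from 1 flushed mouse, flushing being the washing of blood out of the vessels before dissection. The labels' shared protocol describes flushing for every sample, whereas the descriptions of the pools say non-flushed, and the descriptions were followed. Preparation goes together with pooling, and the deposited file names and headers also separate the pools from the flushed mice by a lane-like tag and a date, so these cannot be told apart.

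Total counts per library ranged from 18763557 to 24965088. The summed level of 12 markers common to vomeronasal sensory neurons was 1273 to 1499 CPM (the count scaled to a common library size) in the pools and 1229 to 1316 CPM in the flushed mice. That of 9 markers of basal neurons was 1168 to 1235 and 1116 to 1216 CPM. Of the 11 tested common markers 4 were called lower in flushed mice and 1 higher (median log2 difference -0.15). Of the 9 basal markers 2 were called lower and 1 higher (median -0.23). Among all tested genes 22.9% were called lower and 22.6% higher. Trpc2, a defining channel of these neurons, was listed at 0 in every library, and its exons lie within those of the gene Xntrpc on the same strand, where reads over more than 1 gene were not counted. Markers of red blood cells summed to 1646 to 2053 CPM in the pools and 105 to 620.5 CPM in the flushed mice, with 7 of 7 genes called lower in flushed mice. Markers of fibroblasts and bone summed to 34500 to 45060 CPM in the pools and 16050 to 21570 CPM in the flushed mice, with 5 of 8 genes called lower and 2 higher. Markers of neutrophils summed to 8577 to 11710 and 6584 to 9026 CPM, with 6 of 6 called lower (median log2 difference -1.71), although the summed ranges overlap. Nearly all of this sum was Ltf, with means of 9648 CPM in the pools and 7352 CPM in the flushed mice, 1.32-fold lower. The next highest marker of this list, S100a9, had a mean of 117 CPM in the pools, and whether Ltf came from neutrophils was not tested. The other markers of the list were 2.38-fold (Retnlg) to 5.44-fold (Camp) lower. Those of sustentacular cells, the supporting cells of the epithelium, summed to 1506 to 1573 and 1202 to 1620 CPM, with 3 of 7 called lower and 1 higher. The part of these cell types in the differences below was not tested.

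The members fell into 5 loci when a gap of more than 1 Mb between genes was taken as a boundary. Vmn2r28 stood alone at 5.5 Mb (GRCm38). The second locus held 24 genes, Vmn2r29 to Vmn2r52, over 2951 kb from 7.2 Mb, all on the minus strand. The third was a compact trio, Vmn2r54, Vmn2r55 and Vmn2r56, within 121 kb at 12.6 to 12.7 Mb. The fourth held 7 genes, Vmn2r57 to Vmn2r63, at 41.4 to 42.9 Mb, and the fifth held 14 genes, Vmn2r66 to Vmn2r79, at 85.0 to 87.0 Mb.

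Sequences before the annotated start of each gene were compared between the loci. RefSeq windows (GRCm38.p6) of 250 bases before to 50 bases after the annotated start were at hand for 45 of the 49 members. The letters ATG stood at the annotated start in 42 of them, so most windows lie next to coding sequence and may not reach a true transcription start. After the windows had been read, 1 recurring 9-letter element was chosen, AGCCNNAGG, and searched on both strands. It was present in 38 of 45 member windows (84.4%), in 8 of 68 windows of Vmn2r genes on other chromosomes (11.8%), in 1 of 205 Vmn1r windows (0.5%) and in 2651 of 32851 windows of all genes (8.1%). Since the element was picked from the member windows, its frequency in them follows from that choice, and the members are duplicates of each other, so the windows are not independent. On the sense strand it began 68 to 217 bases before the start in 21 of 22 windows of the second locus, 3 of 7 of the fourth and 12 of 12 of the fifth, and in none of the 4 windows of Vmn2r28 and the trio. The following 59-base stretches, 5′ to 3′ on the gene's strand with the element in capitals, show the element in the most highly expressed member (Vmn2r43), in 3 near-identical copies of unequal level (Vmn2r44, Vmn2r31 and Vmn2r33), in the gene that differed between the sexes (Vmn2r58) with its neighbour, and in 2 genes of the fifth locus. All 8 stretches lie upstream of every GENCODE transcript of their gene. This does not hold for every member with the element. The stretch overlapped an exon of the gene in Vmn2r60, Vmn2r66, Vmn2r69, Vmn2r73, Vmn2r78 and Vmn2r79, and lay in an intron in Vmn2r71.
Vmn2r43, chr7:8260711-8260769, minus strand: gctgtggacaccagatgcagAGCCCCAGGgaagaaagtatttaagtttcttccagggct
Vmn2r44, chr7:8383383-8383441, minus strand: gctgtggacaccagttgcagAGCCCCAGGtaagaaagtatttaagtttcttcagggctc
Vmn2r31, chr7:7399772-7399830, minus strand: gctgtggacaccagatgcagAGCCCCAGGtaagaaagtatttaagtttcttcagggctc
Vmn2r33, chr7:7566931-7566989, minus strand: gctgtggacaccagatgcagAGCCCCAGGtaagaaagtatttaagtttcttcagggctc
Vmn2r58, chr7:41872840-41872898, minus strand: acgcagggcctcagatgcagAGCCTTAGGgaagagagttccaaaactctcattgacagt
Vmn2r59, chr7:42059149-42059207, minus strand: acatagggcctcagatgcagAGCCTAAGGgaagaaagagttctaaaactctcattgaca
Vmn2r67, chr7:85156076-85156134, minus strand: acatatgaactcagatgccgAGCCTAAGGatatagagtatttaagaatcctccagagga
Vmn2r68, chr7:85237881-85237939, minus strand: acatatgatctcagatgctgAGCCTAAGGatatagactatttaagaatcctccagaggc
The stretches of Vmn2r31 and Vmn2r33 did not differ at any base, that of Vmn2r44 differed from them by 1 edit, and those of Vmn2r58 and Vmn2r67 differed from that of Vmn2r31 by 24 and 21 edits.

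The trio of the third locus did not hold the element in the sense direction. Its 3 windows shared a run of 29 bases that began 69 bases before the start and was found in no other member. Among all windows it occurred in 4, which were those of the trio and of their neighbour Vmn2r53. It is shown in capitals below with 20 bases on each side, because these 3 genes also stood apart in their response to preparation. No link between the run and that response was tested. The stretch of Vmn2r55 lies upstream of its GENCODE transcripts, and those of Vmn2r54 and Vmn2r56 lie in an intron of a longer transcript. In Vmn2r54 and Vmn2r56 only 7 bases before the start lie in an exon, so these windows lie inside the gene. The sequence before the first exon of the longer transcripts was not read, and whether it holds the element is not known.
Vmn2r54, chr7:12636155-12636223, minus strand: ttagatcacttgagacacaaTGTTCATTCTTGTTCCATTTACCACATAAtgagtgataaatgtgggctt
Vmn2r55, chr7:12685012-12685080, minus strand: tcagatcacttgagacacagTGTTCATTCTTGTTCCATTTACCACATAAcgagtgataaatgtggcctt
Vmn2r56, chr7:12733126-12733194, minus strand: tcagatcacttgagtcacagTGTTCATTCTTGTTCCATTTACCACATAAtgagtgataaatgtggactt
A match is a description of the letters in a window and not of a binding site.

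Of the 5 motifs searched by name, the core recognised by Ebf factors, CCCNNGGG, was present in 21 of 45 member windows (46.7%), against 2.9% of the other Vmn2r windows and 13.7% of all windows. In the second locus, where 18 of 22 windows held it, it overlapped the AGCCNNAGG element except in Vmn2r52, which lacks that element. The TATA box letters TATAAA were present in 4.4% of member windows, 32.4% of other Vmn2r windows and 13.6% of all windows. The letters CCAAT were present in 17.8, 38.2 and 37.4%, the homeodomain core TAATTA in 4.4, 26.5 and 5.3%, and the E-box CAGCTG in 3 of 45 member windows against 16.3% of all windows. Vmn2r58 and its neighbour Vmn2r59 were the 2 members with TAATTA.

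Coding sequences ranged from 2406 to 2634 bases and differed sharply between loci in how unique they were. To show how far reads from coding sequence can be assigned, every 100-base word of it, 100 bases being the read length, was searched in the GENCODE transcripts of other genes. The exons over which reads were counted span 3171 to 18710 bases a member, and their part outside the coding sequence was not searched. In the second locus a median of 82.1% of words were shared with another gene, from 0.9% in Vmn2r52 to 100% in Vmn2r47. In the trio the median was 52.7%, in the fourth locus 6.4% and in the fifth locus 1.0%. The fourth locus ranged from 3.4 to 75.7%, with Vmn2r62 (75.7%), Vmn2r57 (53.3%) and Vmn2r63 (22.6%) the least unique, and the fifth from 0.0 to 8.9%. The deposited counts divide a read with several alignments evenly between them, so levels in the second locus are uncertain and differences between its genes are diluted. All 8 libraries had a count that was not whole for 15 members, and 2 members, Vmn2r75 and Vmn2r76, had whole counts throughout (tolerance 0.001). Exons of Vmn2r29 overlapped those of Gm45844 on the same strand over 25.2% of their length and exons of Vmn2r57 those of Gm20449 over 31.3%, and reads there were left out.

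The 49 members held a nearly constant share of all counts on numbered Vmn2r genes, 31.7 to 32.9% in the pools and 31.5 to 32.7% in the flushed mice. Levels per length are given as RPKM, the CPM divided by exon length in kilobases. The median member had a mean level of 1.52 RPKM, the median Vmn2r gene of chromosome 17 had 0.833 RPKM and that of the other chromosomes 2.07 RPKM. Within chromosome 7 the highest level was that of Vmn2r43, with 6.28, 5.84, 5.36 and 5.75 RPKM in the male and then the female pools, 12.6 and 10.9 RPKM in the flushed females and 12.1 and 9.82 RPKM in the flushed males. It was above every other member in every library. The exon length of its model, 3171 bases, is the shortest among the members, whose longest is 18710 bases, so its rank depends on the annotation. Without division by length the highest member was Vmn2r42, with a mean of 49.8 CPM.

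After Vmn2r43 the next highest mean levels were those of Vmn2r49 (5.44 RPKM), Vmn2r28 (5.04 RPKM) and Vmn2r39 (4.92 RPKM). Their libraries overlapped: Vmn2r49 ranged from 3.73 to 8.81 RPKM, Vmn2r28 from 2.72 to 8.12 RPKM and Vmn2r39 from 3.29 to 6.81 RPKM. In the trio the order was Vmn2r54 (3.88 RPKM), Vmn2r55 (3.15 RPKM) and Vmn2r56 (1.56 RPKM), and it was the same in each of the 8 libraries. In the fourth locus Vmn2r63 (1.5 RPKM), Vmn2r58 (1.24 RPKM) and Vmn2r57 (1.22 RPKM) were highest, and in the fifth Vmn2r76 (2.97 RPKM), Vmn2r79 (2.34 RPKM) and Vmn2r69 (2.28 RPKM). The median level was 1.98 RPKM in the second locus, 0.918 RPKM in the fourth and 1.07 RPKM in the fifth.

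At the other end were Vmn2r75 (0.0580 RPKM), Vmn2r61 (0.0888 RPKM) and Vmn2r35 (0.114 RPKM), the lowest of the tested members. The 2 members that failed the filter were lower still. Vmn2r71 had 2 to 10.8 counts a library, and Vmn2r47 had at most 1.25 counts and exactly 0 in 4 libraries. A count of 0 allows up to 3 counts, or 0.118 to 0.172 CPM in these libraries. The coding words of Vmn2r47 are all shared with other genes. Even division would therefore also give it part of the reads of those genes, yet its counts were near 0. The cause of this was not tested. Of the 49 members, 45 to 48 reached 10 counts in a given library.

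**Figure D1:**
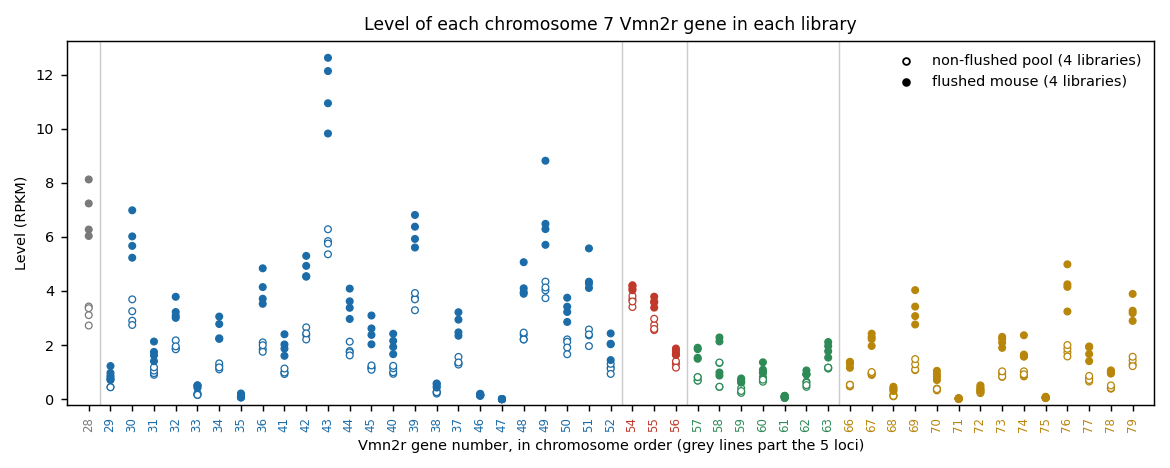
Level in RPKM (vertical axis) of each of the 49 genes in chromosome order (horizontal axis), with open points for the 4 non-flushed pools and filled points for the 4 flushed mice and 1 colour a locus. Vmn2r43 lies above all others in each library, and the open and filled points of the trio Vmn2r54 to Vmn2r56 lie closer together than those of most other genes.

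Some near-identical copies differed widely in level. Vmn2r44, Vmn2r31, Vmn2r33 and Vmn2r38 have coding sequences that are 98.8 to 99.5% identical in each pair, and their windows before the start differ by 0 to 3 edits. Vmn2r44 ranged from 14.4 to 18.9 CPM in the pools and from 26.4 to 36.3 CPM in the flushed mice. Vmn2r31 ranged from 11.1 to 14.5 and from 17.3 to 26.2 CPM. Both lay far above Vmn2r33, at 1.16 to 1.58 and 3.09 to 3.81 CPM, and Vmn2r38, at 1.25 to 1.64 and 2.60 to 3.51 CPM. The groups did not overlap, although the windows of Vmn2r31 and Vmn2r33 were identical throughout. Per length the mean levels of Vmn2r44, Vmn2r31, Vmn2r33 and Vmn2r38 were 2.66, 1.38, 0.328 and 0.381 RPKM.

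Vmn2r30 and Vmn2r47, 99.4% identical, showed the widest gap among the copies compared, with 17.9 to 45.5 CPM for Vmn2r30 against at most 0.0495 CPM for Vmn2r47. Reads that fit both genes would be divided between them, so how the near absence of counts on Vmn2r47 arose is not known. Other copies lay closer together. Vmn2r40 and Vmn2r41 differ by 6 edits over the coding sequence and by 1 edit in the window. Their mean levels were 18.5 and 13.5 CPM, or 1.56 and 1.49 RPKM. Vmn2r34 and Vmn2r45, 98.9% identical with identical windows, had 15.6 and 25.6 CPM, or 1.89 and 1.85 RPKM. The exon lengths of their models are 8267 and 13869 bases, so this gap depends on division by length. Vmn2r32 and Vmn2r49, 99.5% identical with identical windows, had 24.2 and 27.0 CPM, while Vmn2r42, 99.1% identical to each of them, had 49.8 CPM. Per length they were at 2.62, 5.44 and 3.62 RPKM in that order, so their ranking depends on the unit. These pairs were picked for their sequence with the levels known, and no test was made between genes that share reads.

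Nearly all tested members had a higher level in the flushed mice than in the pools. The difference was called for 44 of the 47 tested members, all of them higher, with edgeR's quasi-likelihood test and a Benjamini-Hochberg adjusted p under 0.05, where 22.6% of all tested genes were called higher. No member was called lower, as 22.9% of all tested genes were, none had an unadjusted p under 0.05 in that direction, and limma-voom and DESeq2 also called 0 lower. The median log2 difference of the tested members was 0.96, against 1.13 for the tested Vmn2r genes of chromosome 17, 0.89 for those of the other chromosomes and -0.02 for all tested genes. The summed level of the 49 members was 486 ± 24.6 CPM in the pools (SD, n = 4) and 942 ± 98.9 CPM in the flushed mice (SD, n = 4). The 4 flushed libraries lay above the 4 pools for 39 of the 49 members. How many of all tested genes did so was not counted. Within females and within males alike the difference was above 0 for 45 members, and the share of all tested genes for which this held was not counted either.

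The median rise was highest in the fifth locus, the genes Vmn2r66 to Vmn2r79. Vmn2r69 had 16.5, 16.8, 19.8 and 22.7 CPM in the pools and 61.8, 47.1, 52.5 and 42.3 CPM in the flushed mice. The groups did not overlap, and the level was 2.7-fold higher (log2 1.43, SE 0.11, edgeR adjusted p 2e-05). Vmn2r66 had 7.41 to 8.38 CPM in the pools and 18.1 to 21.6 CPM in the flushed mice, a 2.57-fold rise (log2 1.36, SE 0.09, edgeR adjusted p 1.4e-05). Vmn2r68, of low level, went from 1.21 to 1.88 CPM in the pools to 3.40 to 5.23 CPM in the flushed mice, a 2.92-fold rise that was the largest of all tested members (log2 1.55, SE 0.15, edgeR adjusted p 6e-05). Vmn2r70 rose 2.43-fold. In this locus 12 of 13 tested genes were called higher, with a median log2 difference of 1.23, and Vmn2r75 was not called (log2 0.20, SE 0.32, edgeR adjusted p 0.63). One of the 12, Vmn2r72 (log2 0.50), lost its call without any of 7 libraries, with edgeR adjusted p of 0.053 to 0.14.

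In the second locus 22 of 23 tested genes were called higher, with a median log2 difference of 0.93 and a range from 0.20 to 1.44. Vmn2r33 rose most, from a mean of 1.32 CPM to 3.57 CPM, or 2.7-fold (log2 1.43, SE 0.16, edgeR adjusted p 1e-04). It had only 20.2 to 30.3 counts in the pools, and 80.2% of its coding words are shared with other genes. Its 99.5% identical copy Vmn2r38 rose less (log2 1.03, SE 0.15, edgeR adjusted p 0.00047). Vmn2r46 was not called, with 1.01 to 1.09 CPM in the pools and 0.892 to 1.46 CPM in the flushed mice (log2 0.20, SE 0.21, edgeR adjusted p 0.47). Its flushed males were at 1.14 and 0.892 CPM and its flushed females at 1.39 and 1.46 CPM. The call of the low Vmn2r35 was lost without any of 5 libraries, with edgeR adjusted p of 0.056 to 0.14. In the fourth locus 6 of 7 genes were called higher with a median log2 difference of 0.78, and Vmn2r61 was not (log2 0.34, SE 0.39, edgeR adjusted p 0.49). Vmn2r28, alone in its locus, rose 2.20-fold.

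The trio of the third locus rose little, and the 3 members that were not called, Vmn2r46, Vmn2r61 and Vmn2r75, were all of far lower level. Vmn2r54 had 20, 20.7, 18.5 and 19.6 CPM in the pools and 22.8, 21.9, 22.9 and 22.2 CPM in the flushed mice. The groups did not overlap but were close, and the rise was 1.14-fold (log2 0.19, SE 0.06, edgeR adjusted p 0.035). Vmn2r55 had 13.7 to 16.0 CPM and 18.2 to 20.3 CPM, a 1.32-fold rise (log2 0.40, SE 0.07, edgeR adjusted p 0.0012). Vmn2r56 had 6.92 to 9.86 CPM and 9.76 to 11.1 CPM, groups that overlapped, with a 1.26-fold rise (log2 0.33, SE 0.12, edgeR adjusted p 0.042). The calls of Vmn2r54 and Vmn2r56 were lost without any of 5 and any of 7 libraries, with edgeR adjusted p of 0.06 to 0.12 and 0.058 to 0.13, and that of Vmn2r55 was kept without each library in turn. The trio's share of the members' counts was 8.39 to 9.15% in the pools and 4.87 to 6.29% in the flushed mice, while the fifth locus had 19.3 to 20.9% and 24.3 to 25.1%.

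**Figure D2:**
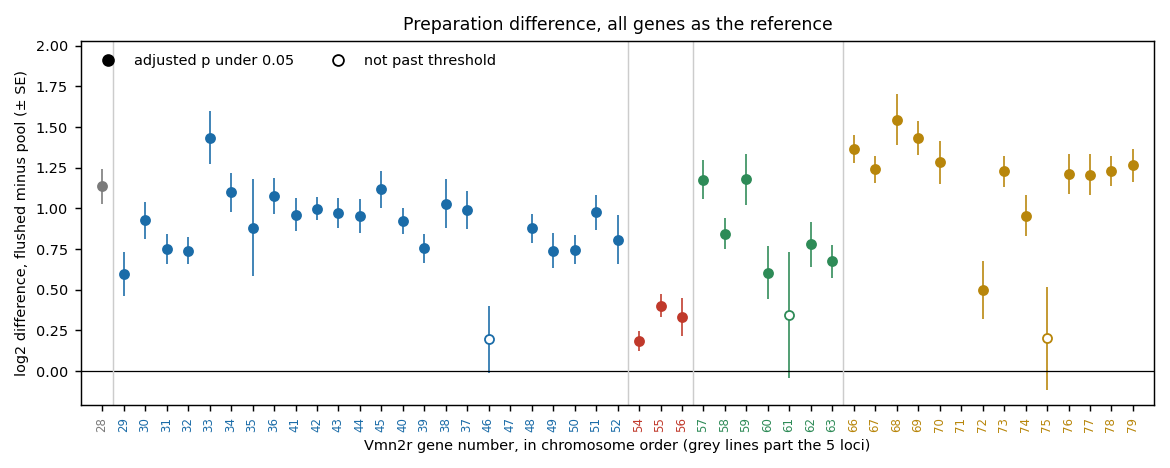
Fitted log2 difference between flushed mice and pools (vertical axis, bars show the SE) for each tested gene in chromosome order (horizontal axis), filled where the edgeR adjusted p was under 0.05. All points lie above 0, those of Vmn2r54 to Vmn2r56 lie between 0.19 and 0.40, and most of those of Vmn2r66 to Vmn2r79 lie above 1.

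Because receptor genes rose as a class, the members were also compared with library sizes taken over the 281 tested vomeronasal receptor genes (Vmn1r, Vmn2r and Fpr-rs). This scaling moved the median log2 difference of all tested genes to -0.90, and values below are relative to receptor genes. Of the 47 tested members 14 were then called higher, against 1.11% of all tested genes and 17.4% of the tested receptor genes, and 5 were called lower, against 81.6% of all tested genes and 14.6% of the tested receptor genes. With library sizes over Vmn2r genes alone the counts were 9 higher and 12 lower, so the balance between them depends on the reference genes. The median of the members was 0.06, that of chromosome 17 was 0.24 and that of the other chromosomes 0.00.

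The 3 genes of the trio were among the 5 called lower relative to receptor genes, and these calls were kept without each library in turn. Vmn2r54 was at -0.70 (SE 0.08, edgeR adjusted p 5e-06) and Vmn2r55 at -0.48 (SE 0.10, edgeR adjusted p 0.0006). Vmn2r56 was at -0.56 (SE 0.11, edgeR adjusted p 0.00068). The other two were Vmn2r46 (-0.69, edgeR adjusted p 0.011) and Vmn2r63 (-0.22, edgeR adjusted p 0.048), whose call was lost without any of 7 libraries. The neighbour Vmn2r53, 94.0% identical to Vmn2r54 in coding sequence and sharing its 29-base run, was at 0.19 (SE 0.09, edgeR adjusted p 0.074), and against all genes it rose from a mean of 28.1 to 59.3 CPM.

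Of the 14 members called higher relative to receptor genes, 10 lay in the fifth locus, which has 13 tested genes. They were Vmn2r66 to Vmn2r70, Vmn2r73 and Vmn2r76 to Vmn2r79. Vmn2r69 was at 0.54 (SE 0.08, edgeR adjusted p 9.4e-05) and Vmn2r66 at 0.47 (SE 0.09, edgeR adjusted p 0.00047). Vmn2r68 stood at 0.65 (SE 0.16, edgeR adjusted p 0.0023). The calls of Vmn2r76 and Vmn2r77 were lost without female pool 1, at 0.23 (edgeR adjusted p 0.07) for the former and 0.28 (edgeR adjusted p 0.054) for the latter, and that of Vmn2r77 also without male pool 1 (edgeR adjusted p 0.053). The remaining 4 were Vmn2r28 (0.24), Vmn2r33 (0.55), Vmn2r45 (0.22) and Vmn2r57 (0.28). Vmn2r38, the near-identical copy of Vmn2r33, was not called (0.14, edgeR adjusted p 0.44). Vmn2r28 lost its call without female pool 1 (0.19, edgeR adjusted p 0.08), and Vmn2r45 and Vmn2r57 lost theirs without any of 5 and any of 4 libraries, with edgeR adjusted p of 0.061 to 0.13 and 0.055 to 0.096. Genes of the fifth locus share at most 8.9% of their coding words with other genes. Across the 47 tested members the log2 difference between preparations had a Spearman rho of -0.25 with the share of words shared, 0.47 with exon length and 0.17 with mean CPM, given as a description since the members share the same libraries and their loci.

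**Figure D3:**
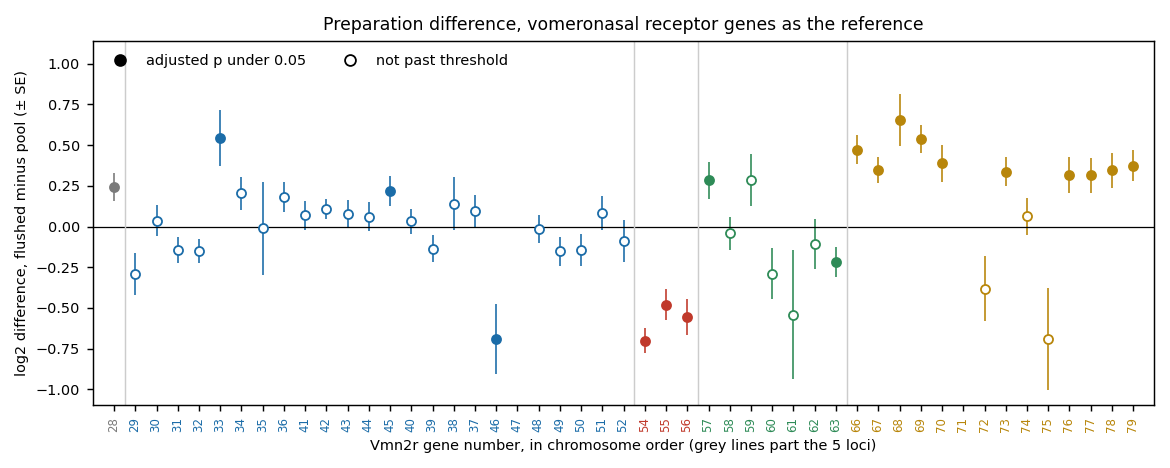
Log2 difference between flushed mice and pools relative to the vomeronasal receptor genes (vertical axis, bars show the SE) for each tested gene in chromosome order (horizontal axis), filled where the edgeR adjusted p was under 0.05. The trio Vmn2r54 to Vmn2r56 lies below 0 at -0.70 to -0.48, and 10 of 13 genes of the fifth locus are filled and above 0.

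A single member differed between the sexes. Vmn2r58, at chr7:41831120-41872670 on the minus strand, had 3.76 and 3.85 CPM in the male pools and 11.2 and 11.3 CPM in the female pools, and 8.23 and 7.29 CPM in the flushed males and 19.1 and 17.8 CPM in the flushed females. In both preparations the males lay below the females with no overlap, in raw counts 69.5 and 67 against 252.5 and 221.5 in the pools. The level was 2.61-fold lower in males (log2 -1.38, SE 0.10, edgeR adjusted p 0.00015), where 0.116% of all tested genes were called in either direction. It was -1.56 within the pools (edgeR adjusted p 0.0027) and -1.24 within the flushed mice (edgeR adjusted p 0.0033), and -1.32 relative to receptor genes. The call was kept without each library in turn, at -1.45 to -1.35, and was lost when preparation was left out of the model (-1.35, edgeR adjusted p 1.0), where the spread between preparations enters the error.

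Vmn2r58 shares 6.4% of its coding words with other genes and is at most 91.1% identical to another Vmn2r gene, Vmn2r61. Its neighbours in the fourth locus did not pass the threshold, with log2 differences between males and females of -0.08 for Vmn2r57, -0.27 for Vmn2r59 and -0.01 for Vmn2r60. The next largest difference of a member was that of Vmn2r29, whose males also lay below the females in both preparations, at 2.93 and 2.90 against 4.84 and 5.72 CPM in the pools and 5.22 and 4.64 against 8.04 and 6.38 CPM in the flushed mice. It did not pass the threshold (log2 -0.69, SE 0.14, edgeR adjusted p 0.18), and it did with DESeq2 (-0.68, adjusted p 0.037). Males lay below females in both preparations for 5 members, which also included Vmn2r31, Vmn2r40 and Vmn2r68, and above them for 2, Vmn2r50 and Vmn2r72. None of these other 5 passed the threshold, with edgeR adjusted p of 0.32 or more. The share of all tested genes that separated the sexes in this way was not counted. The median log2 difference of the tested members between males and females was -0.07, against -0.11 for chromosome 17, -0.04 for the other chromosomes and 0.00 for all tested genes.

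**Figure D4:**
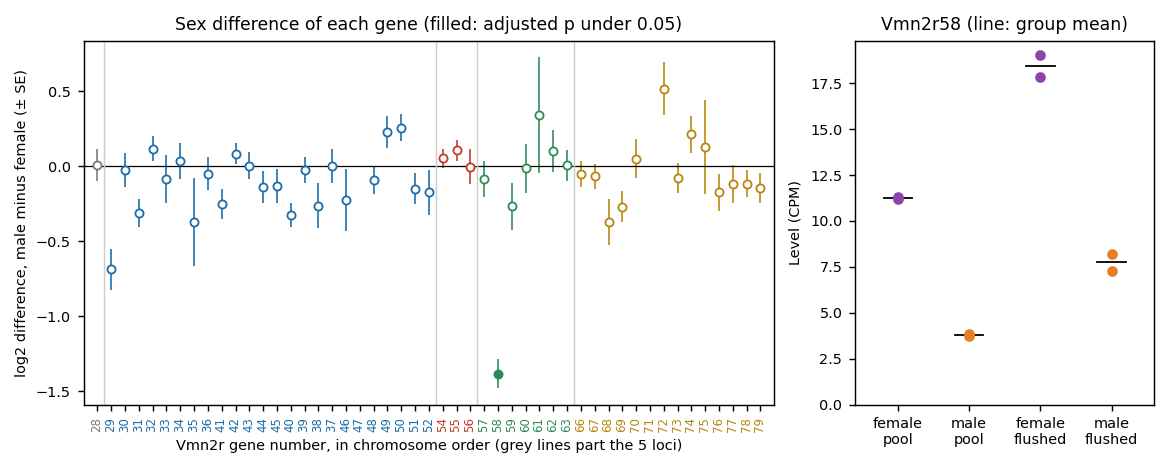
Left, log2 difference between males and females (vertical axis, bars show the SE) for each tested gene in chromosome order (horizontal axis), with Vmn2r58 the 1 filled point past an edgeR adjusted p of 0.05. Right, level of Vmn2r58 in CPM in each of the 8 libraries by group, with the group mean as a line, where males lie below females in both preparations.

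The difference between preparations did not itself differ detectably between the sexes. No member was called for the interaction of sex and preparation with edgeR, where 0.0485% of all tested genes were, and 0 members had an unadjusted p under 0.05. Limma-voom and DESeq2 also called 0. With 2 libraries in each group this comparison has little precision, as in Vmn2r58 (log2 0.31, SE 0.18, edgeR adjusted p 1.0).

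The spread of the members between replicate libraries was set beside that of all tested genes. The residual SD, taken on log2(CPM + 0.5) within each group of 2, had a median of 0.152 over the 44 members whose mean count reached 20, beside a median SD from counting alone of 0.089. The corresponding residual SD was 0.138 for chromosome 17, 0.139 for the other chromosomes and 0.131 for all tested genes, beside a counting SD of 0.080 for the latter. In the members it exceeded the counting SD in 32 of 44, and the share of all tested genes in which it did so was not counted. The largest values were those of Vmn2r52 (0.253, counting SD 0.094), Vmn2r70 (0.217, counting SD 0.115) and Vmn2r77 (0.214, counting SD 0.108). In Vmn2r52 the flushed mice ranged from 1.45 to 2.43 RPKM and the pools from 0.934 to 1.31 RPKM.

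Part of the spread followed the same libraries in many members, some of which share reads. How often those libraries were highest or lowest among all tested genes was not counted. Among the flushed mice, female 2 had the highest level in 32 of the 47 tested members and male 3 the lowest in 31, and the summed levels of all 49 members were 1058 CPM and 832 CPM in these libraries. Vmn2r54, Vmn2r55 and Vmn2r58 varied least among the 44. The residual SD was 0.042 in Vmn2r54, 0.059 in Vmn2r55 and 0.068 in Vmn2r58, each below its counting SD of 0.068, 0.077 and 0.118. Vmn2r56, the remaining gene of the trio, had 0.188 beside a counting SD of 0.104.

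**Figure D5:**
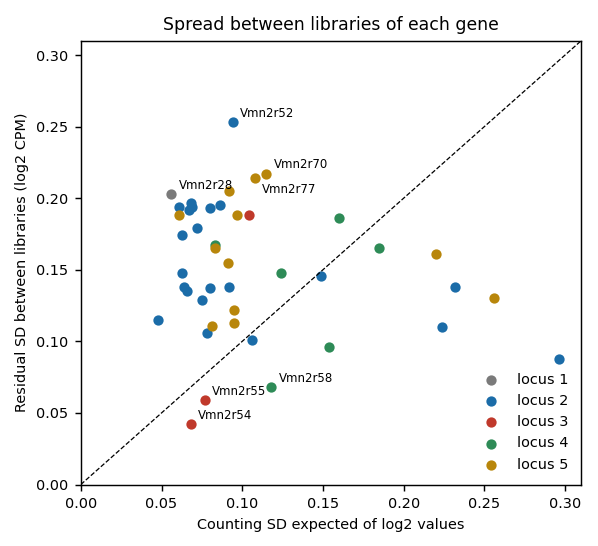
Residual SD of log2 CPM between libraries of a group (vertical axis) against the SD from counting alone (horizontal axis) for the 44 genes whose mean count reached 20, coloured by locus, with the line of equality dashed. Vmn2r52 lies highest at 0.253, and Vmn2r54, Vmn2r55 and Vmn2r58 lie below the line.

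The co-receptors of family C, with which these receptors are co-expressed, moved in the same direction. All 6 that could be matched, Vmn2r1 to Vmn2r6, were called higher in flushed mice, with a median log2 difference of 0.86. Vmn2r6 rose 1.85-fold from a mean of 65.0 ± 2.03 CPM in the pools (SD, n = 4; edgeR adjusted p 1.8e-05).

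Signalling genes downstream of the receptors, their folding and surface partners and regulators of basal identity and receptor choice are read against the 22.6% of all tested genes called higher and 22.9% called lower in flushed mice. Of 19 tested genes of the transduction list 3 were called higher and 6 lower, with a median log2 difference of -0.06, shares near that background. Gnb1, a G protein beta subunit, rose 1.40-fold (edgeR adjusted p 0.00048), the calcium channel subunit gene Cacna1g was 1.29-fold lower (edgeR adjusted p 0.00059), and Gnao1, the alpha subunit that couples to these receptors, did not pass the threshold (log2 -0.15, edgeR adjusted p 0.086). Of 14 chaperones and surface partners 2 were called higher and 2 lower, with a median of -0.01, again no more than the background. The chaperone gene Calr was 1.39-fold lower (edgeR adjusted p 0.00011) and B2m was 1.38-fold higher (edgeR adjusted p 0.0016).

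Of 12 regulators of basal identity and receptor choice 4 were called higher and 3 lower, with a median of -0.08, which is also near the background. Ldb1, a cofactor of LIM homeodomain factors, was 1.42-fold lower (edgeR adjusted p 0.00021). Cbx5, a heterochromatin protein, was 1.34-fold higher (edgeR adjusted p 0.00027), and Ebf2, whose family recognises the core searched above, was 1.23-fold higher (edgeR adjusted p 0.0021). No link between Ebf2 and that core in the member windows was tested. Tfap2e and Bcl11b, factors of basal neuron identity, did not pass the threshold (log2 -0.23 and -0.09, edgeR adjusted p 0.25 and 0.28). None of the genes in these lists was called between the sexes.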

How the data were processed

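PolyA-selected RNA of 8 vomeronasal epithelium libraries was read as stranded single ends of 100 bases, per the labels' protocols. Per the submitters' processing notes, the authors used STAR 2.7.1a, GRCm38 and featureCounts 1.6.5. Per the file headers, the deposited expected counts are not normalized and divide multiply aligned reads between genes, on the reverse strand. Groups came from the labels.

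Symbols came from GENCODE M21 (48422 of 48831 genes). Rounded counts entered edgeR 4.0.16 under R 4.3.3 (quasi-likelihood test, TMM, filterByExpr on the 4 groups, 20601 genes, Benjamini-Hochberg adjustment over all of them, threshold 0.05) with additive terms for sex and preparation, and an interaction in a further fit. Every adjusted p is from this test unless another tool is named. The SE follows from the log2 difference and its F statistic. CPM uses unrounded counts over the TMM-scaled total of the tested genes. The code was tested on simulated data. Replicates of each group differed beyond sampling noise. Replicates are separate mice or pools, and p-values measure only the spread between these libraries. Alternatives were DESeq2 1.42.0, limma-voom (limma 3.58.1), other scalings and filters, and leaving out each library.

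Genes named are those called between sexes, the 5 with the largest and smallest preparation difference, the 3 highest of each locus, the 3 highest and lowest tested, the 3 with the largest and smallest spread, those lower relative to receptor genes and those not tested. Near-identical copies, other genes with a lost call and the sex neighbours were added with values seen. The members, lists and rules were chosen with earlier results of these data known. Edit distances used edlib 1.3.9.post1. Planned protein comparisons were replaced by coding sequences.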

Additional observations from a re-analysis of the deposited data

How the results depend on the processing

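No paired analysis was made, because the libraries come from different mice and the labels give no pairing between them. The count of members higher in flushed mice was 44 and 40 to 42 without each library in turn, and it fell to 14 higher with 5 lower under receptor library sizes, where by construction each value is relative to receptor genes. Apart from the runs with receptor or Vmn2r library sizes, the count stayed within 1.5 times the 44 under every alternative run. Those runs included marker-based library sizes, and 0 members were lower under them. Relative to receptor genes, 14 higher and 5 lower became 9 and 12 with library sizes over Vmn2r genes alone, and 11 to 16 and 4 to 6 without each library. The 1 member lower in males became 2 with DESeq2, 4 without a filter on low counts (adding Vmn2r29, Vmn2r40 and Vmn2r69) and 0 without a term for preparation, and stayed 1 without each library. Counts of 0 for the interaction and for members higher in males were 0 under every alternative run. Among single members, the preparation difference of Vmn2r46 was -0.08 within males, and that of Vmn2r75 was -0.25 within males and between -0.11 (without female flushed mouse 2) and 0.40 without each library, none of them called. The median level is 13.5 when given as CPM, a change of unit. The share of Vmn2r counts averaged 32.2% and was 37.9% without Vmn2r1 to Vmn2r7. Low counts limit Vmn2r35, Vmn2r46, Vmn2r61, Vmn2r71 and Vmn2r75, and in the pools also Vmn2r33, Vmn2r38 and Vmn2r68. Shared sequence limits the second locus. The cause of these changes was not tested.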
